A study of Mus musculus with 2 samples.

Results

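The transcript levels of 10 voltage-gated calcium channel genes were measured across cell classes of celiac and superior mesenteric ganglia from mice. These are the prevertebral sympathetic ganglia whose neurons innervate abdominal organs. The genes were chosen by name as 10 of the 32183 gene rows of the count tables: Cacna1a, Cacna1b, Cacna1c, Cacna1d, Cacna1e, Cacna1h, Cacna2d1, Cacna2d2, Cacna2d3 and Cacnb2. They were picked with earlier results of these data known. All 10 had counts in both libraries and passed the filter on low counts. The series held 2 single-cell libraries of 1 group, prepared with 10x Genomics 3′ v3.1 chemistry from digested and triturated ganglia. It drew on 20 mice, equal numbers of each sex, at 7 to 8 weeks of age. No genotype, strain or treatment is named, nor how the animals were divided between the libraries. The comparisons are therefore between cell classes, with the library as the replicate. The p-values rest on the spread between 2 libraries, pooled over classes and genes, which may be technical.

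Voltage-gated calcium channels open when the membrane depolarizes and let calcium into the cell. The α1 subunit forms the pore and sets the channel type, the intracellular β subunit brings the pore to the membrane and tunes its gating, and the extracellular α2δ subunit raises the number of channels at the surface and is the target of gabapentin-type drugs. In sympathetic neurons N-type current is known to trigger much of the noradrenaline release and to be lowered by G protein-coupled receptors, while in vascular smooth muscle L-type current is known to drive contraction.

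The libraries held 94521010 and 95235439 unique molecular identifiers (UMIs), with medians of 6483 and 6498 per barcode. After removal of called doublets 12033 and 11654 cells were analysed. Between the libraries 64 barcode sequences were shared, and 60 of these were among the analysed cells of both. Only 13 of those 60 fell in the same class in both libraries, so they were kept and left out in an alternative. A random 50% of the UMIs of a cell served for clustering and naming and the rest for the levels given here, and the calcium channel genes did not enter the clustering. Levels of Malat1, Th and Acta2 given for a cluster without a value per library are an exception. They come from the UMIs used for clustering, with both libraries pooled. Levels are UMIs of a gene per 1000000 UMIs (CPM) of a class in library 1 and then library 2. Class names stand for cells like those types by marker genes. Levels of different genes are not compared with each other, since capture differs between transcripts.

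Neurons were scarce. Clustered again, neuron-like cells gave 1 cluster rich in Shox2 and 1 rich in Rxfp1, the genes that name these populations here. The other neuron-like cells, 341 and 310 in number, entered no comparison, so neurons in the comparisons below means the named populations only. The Shox2-rich population held 41 and 49 cells, with medians of 18012 and 20796 UMIs. The Rxfp1-rich population held 69 and 55 cells, with medians of 22540 and 21645 UMIs. The 18 neuron markers summed to 29474 and 28828 CPM in Shox2-rich neurons and to 34512 and 37386 CPM in Rxfp1-rich neurons, against 1589 to 4821 CPM in the non-neuronal classes, and none of them was at 0 in any class listed. Th, which encodes the first enzyme of noradrenaline synthesis, had only 337 and 289 CPM in Shox2-rich and 269 and 206 CPM in Rxfp1-rich neurons. Its level in blood endothelial cells, which should lack it, was 84.6 and 84.4 CPM. Free RNA gives UMIs to cells that do not express a gene, so the endothelial value stands beside several shares below.

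Promoter sequences are shown for 4 members because they pair 2 genes high in neurons with 2 genes high in mural cells, the smooth muscle cells and pericytes of vessel walls. They are RefSeq windows of 250 bases before to 50 bases after an annotated start, from build GRCm38.p6. Capitals mark GGGCGG, a GC box core, on either strand, with overlapping matches counted. The Cacna1b window is chr2:24763103-24763402, the Cacna2d3 window is chr14:29721815-29722114 and the Cacna1c window is chr6:119108446-119108745, all on the minus strand. The Cacnb2 window is chr2:14604056-14604355 on the plus strand.
Cacna1b: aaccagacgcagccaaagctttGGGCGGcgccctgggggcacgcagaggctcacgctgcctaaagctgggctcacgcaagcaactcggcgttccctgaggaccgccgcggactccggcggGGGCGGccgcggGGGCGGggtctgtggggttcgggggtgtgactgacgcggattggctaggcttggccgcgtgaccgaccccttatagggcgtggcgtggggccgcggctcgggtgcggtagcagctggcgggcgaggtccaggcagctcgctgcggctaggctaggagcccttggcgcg
Cacna2d3: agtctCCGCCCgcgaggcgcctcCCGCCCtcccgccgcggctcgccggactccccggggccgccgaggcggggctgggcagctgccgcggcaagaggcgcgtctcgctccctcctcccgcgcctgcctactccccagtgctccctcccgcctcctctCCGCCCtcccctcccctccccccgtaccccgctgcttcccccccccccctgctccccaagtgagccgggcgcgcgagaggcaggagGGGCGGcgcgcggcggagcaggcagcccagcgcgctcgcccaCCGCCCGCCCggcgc
Cacna1c: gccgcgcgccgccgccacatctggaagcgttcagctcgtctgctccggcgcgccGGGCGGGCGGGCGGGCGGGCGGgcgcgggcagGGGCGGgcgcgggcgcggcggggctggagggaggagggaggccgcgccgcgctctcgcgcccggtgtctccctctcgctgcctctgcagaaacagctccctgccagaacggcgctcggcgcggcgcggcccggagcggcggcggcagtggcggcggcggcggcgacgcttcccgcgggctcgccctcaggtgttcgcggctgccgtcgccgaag
Cacnb2: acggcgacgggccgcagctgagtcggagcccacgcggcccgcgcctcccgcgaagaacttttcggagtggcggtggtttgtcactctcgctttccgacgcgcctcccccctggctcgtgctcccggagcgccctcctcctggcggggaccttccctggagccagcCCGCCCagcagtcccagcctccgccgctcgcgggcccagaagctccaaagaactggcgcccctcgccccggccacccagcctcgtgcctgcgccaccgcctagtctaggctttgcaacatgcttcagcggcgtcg

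GGGCGG occurred 3 times in the Cacna1b window, 6 times in that of Cacna2d3, 6 times in that of Cacna1c and 1 time in that of Cacnb2. Of all 32851 RefSeq promoter windows of this length, 35.7% held it. The windows held 35, 41, 57 and 35 CpG dinucleotides in the same order, against a median of 7 over all windows. The serum response element known as the CArG box, which lies before many smooth muscle genes, was in none of the 12 windows found for 8 of the members and in 1.63% of all windows. Cacna1c has 3 windows and Cacnb2 has 2, and 3′ counts do not tell which start a cell used. The other windows held 3 and 7 CpG dinucleotides for Cacna1c and 4 for Cacnb2, with 0 matches of GGGCGG in each. A match or its absence describes these letters only. RefSeq windows for Cacna1a and Cacna1h are not shown.

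**Figure D1:**
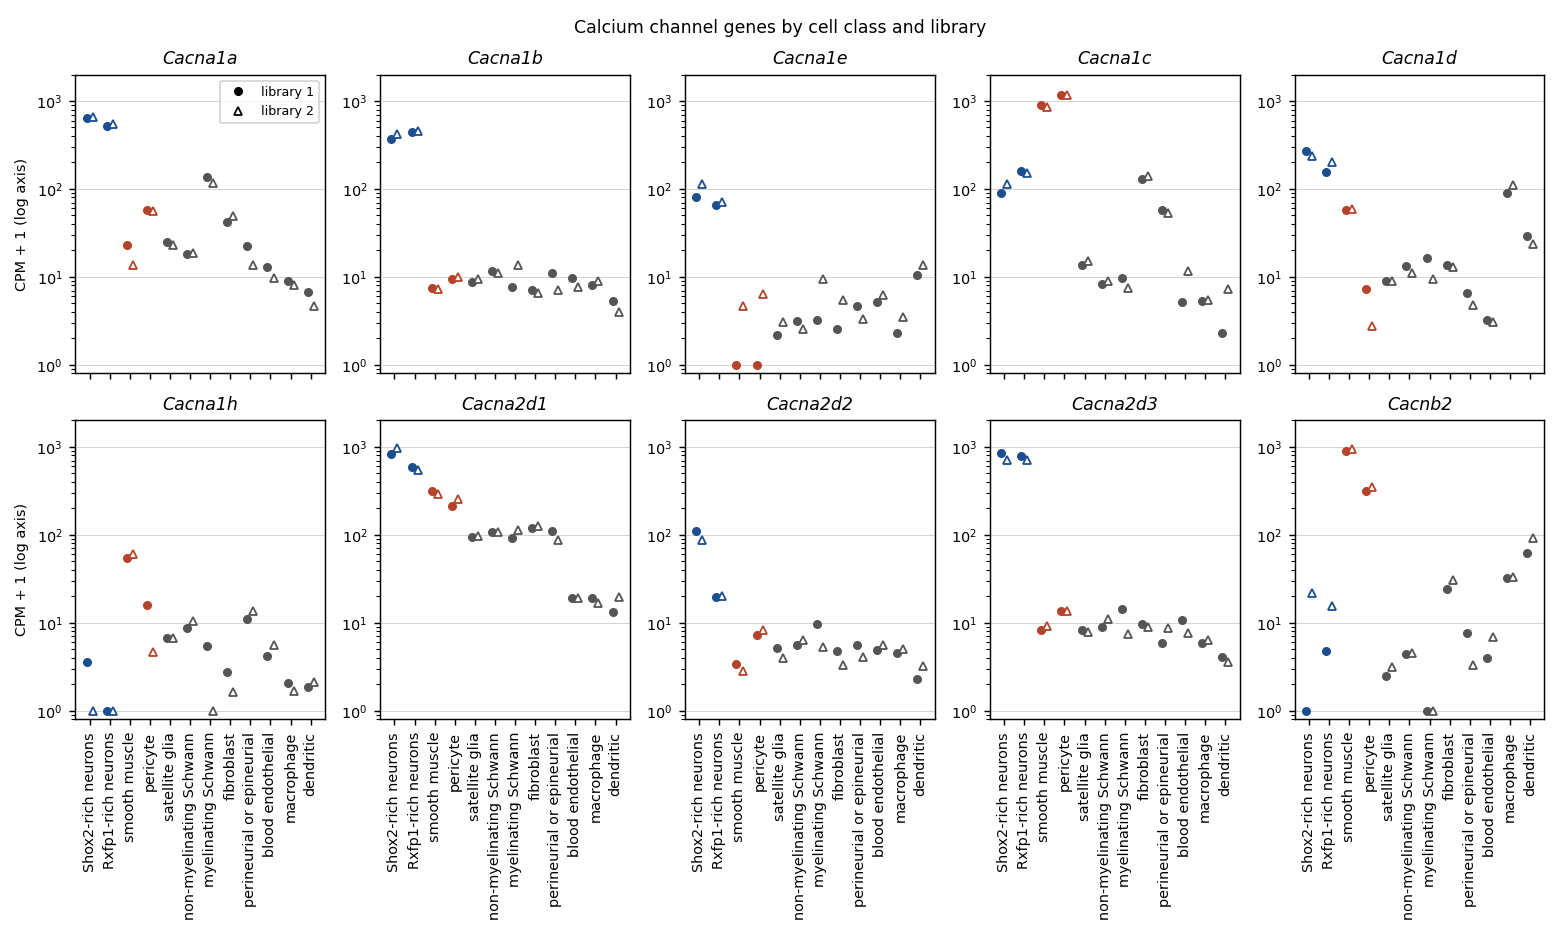
Level of each of the 10 genes as CPM + 1 (log axis) in 12 cell classes, with a circle for library 1 and a triangle for library 2. The neuron populations are highest for Cacna1a, Cacna1b, Cacna1d, Cacna1e and all 3 α2δ genes, whereas smooth muscle cells and pericytes are highest for Cacna1c and Cacnb2.

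The first comparison set the mean of Shox2-rich and Rxfp1-rich neurons against 10 non-neuronal classes, on the log scale and with each class weighted equally. Of the 10 members, 8 were higher in neurons and 1 was lower, where 32.4% of the 15258 genes tested were higher, 33.1% lower and 65.5% either. Since the members were picked with earlier results of these data known, such counts here and below do not test the members as a set. The largest differences were those of Cacna2d3 and of Cacna1b, the pore of N-type channels. All 3 pores of the presynaptic family, both L-type pores and all 3 α2δ genes were called higher. The T-type pore Cacna1h was lower, and Cacnb2 was not called.

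Cacna1b had 366 and 416 CPM in Shox2-rich neurons and 439 and 459 CPM in Rxfp1-rich neurons, against 2.96 to 12.8 CPM over the 20 non-neuronal sums. No neuronal value came near the non-neuronal range. On the log2 scale the difference was 5.63 (SE 0.10, adjusted p = 9.71e-81, edgeR quasi-likelihood test). Each SE given here is the absolute log2 fold change divided by the square root of the F statistic, so it restates the test. Of Shox2-rich neurons 82.9% and 93.9% had a Cacna1b UMI and of Rxfp1-rich neurons 95.7% and 98.2%, against 5.34% and 4.63% of endothelial cells at a median of 7016 and 7026 UMIs. At 5000 UMIs per cell these shares were 84.6% and 95.1% for Shox2-rich neurons and 84.4% and 94.2% for Rxfp1-rich neurons, against 2.61% and 3.08% in endothelial cells. Thinning left out 2 and 8 shallower Shox2-rich neurons, 5 and 3 Rxfp1-rich neurons and 361 and 333 endothelial cells. The neighbouring non-neuronal classes in the order of levels mostly overlapped between libraries, so no order is read among them.

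Cacna1a encodes the pore of P/Q-type channels, which trigger release at many fast synapses. Its level was 633 and 660 CPM in Shox2-rich and 523 and 542 CPM in Rxfp1-rich neurons, against 3.70 to 134 CPM in the non-neuronal classes. The groups did not overlap, but the upper end of the non-neuronal range belonged to myelinating Schwann cells, described below. Neurons were higher by 4.62 on the log2 scale (SE 0.08, adjusted p = 7.84e-83).

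Cacna1e encodes the R-type pore. It had 80.4 and 112 CPM in Shox2-rich and 65.4 and 70.9 CPM in Rxfp1-rich neurons, against 0 to 12.6 CPM elsewhere, highest in dendritic cells. Again no values overlapped, and the log2 fold change was 4.52 (SE 0.21, adjusted p = 2.58e-40).

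Of the L-type pores, Cacna1d, whose channels open at lower voltages and help pace firing, had 272 and 237 CPM in Shox2-rich and 155 and 200 CPM in Rxfp1-rich neurons. Non-neuronal classes ranged from 1.80 to 110 CPM, with macrophages at the top. On the log2 scale neurons were higher by 3.90 (SE 0.12, adjusted p = 2.34e-56). Cacna1c, the main L-type pore of heart and smooth muscle, had 88.2 and 112 CPM in Shox2-rich and 160 and 152 CPM in Rxfp1-rich neurons. Non-neuronal values ran from 1.32 to 1183 CPM, with a median of 11.6, and enclosed the neuronal ones. The log2 fold change of 1.83 (SE 0.15, adjusted p = 4.3e-22) is an average over classes. The arithmetic mean was lower in neurons, 124 and 132 CPM against 230 and 227 CPM, with smooth muscle cells and pericytes above all others. With neurons and non-neuronal cells each summed as 1 class per library, where 65.3% of genes were called, the log2 fold change was 0.51 (adjusted p = 0.0013).

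Cacna1h encodes a T-type pore, which opens near the resting potential. It was almost absent from neurons, at 2.59 and 0 CPM in Shox2-rich and 0 and 0 CPM in Rxfp1-rich neurons, against 0 to 58.8 CPM in the other classes, and the groups overlapped at the low end. It was called lower (adjusted p = 0.00129), a call lost when cells were thinned to 5000 UMIs, and no fold is given since 1 class had no count. In sums of this depth a count of 0 allows up to 3.77 and 4.84 CPM in Rxfp1-rich neurons.

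All 3 α2δ genes were higher in neurons. Cacna2d3 had 850 and 699 CPM in Shox2-rich and 787 and 716 CPM in Rxfp1-rich neurons, against 2.59 to 13.2 CPM in non-neuronal classes. Its log2 fold change of 6.52 (SE 0.08, adjusted p = 5.29e-97) exceeded that of every other member. Cacna2d1, the main gabapentin-binding subunit, had 840 and 983 CPM in Shox2-rich and 589 and 540 CPM in Rxfp1-rich neurons. Its non-neuronal levels ran from 12.3 to 312 CPM with a median of 100 CPM, and none reached a value of either neuron population. Neurons exceeded them by 3.11 on the log2 scale (SE 0.07, adjusted p = 1.79e-73). Cacna2d2, which also binds gabapentin, had 109 and 85.4 CPM in Shox2-rich and 18.9 and 19.3 CPM in Rxfp1-rich neurons, against 1.32 to 8.81 CPM elsewhere. That difference was 3.29 on the log2 scale (SE 0.28, adjusted p = 3.22e-20).

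Cacnb2 encodes a β subunit and was not higher in neurons. Neurons held 0 and 20.8 CPM in the Shox2-rich and 3.77 and 14.5 CPM in the Rxfp1-rich population. The non-neuronal classes held 0 to 949 CPM, so the groups overlapped. The comparison was not called (adjusted p = 1), with myelinating Schwann cells at 0 in both libraries. With neurons and non-neuronal cells each summed per library it was called lower, at a log2 fold change of -2.51 (adjusted p = 0.000104). The neuron means of 10.4 and 9.14 CPM lay below mural cells, dendritic cells, macrophages and fibroblasts. They lay above the means of the other non-neuronal classes, with overlap between libraries.

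The second comparison asked whether the 2 neuron populations differ in channel genes. Relative to Rxfp1-rich neurons, 2 members were higher and 1 was lower in Shox2-rich neurons, that is 3 of 10, where 3.03% of all genes tested were higher, 4.04% lower and 7.08% either. Of these, 2 were α2δ genes. The presynaptic pores were not called as reported. Shox2-rich neurons also had less Malat1, a nuclear RNA, at 51598 and 59078 CPM, against 82960 and 80298 CPM in Rxfp1-rich neurons. The part of nuclear RNA in these results was not tested.

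**Figure D2:**
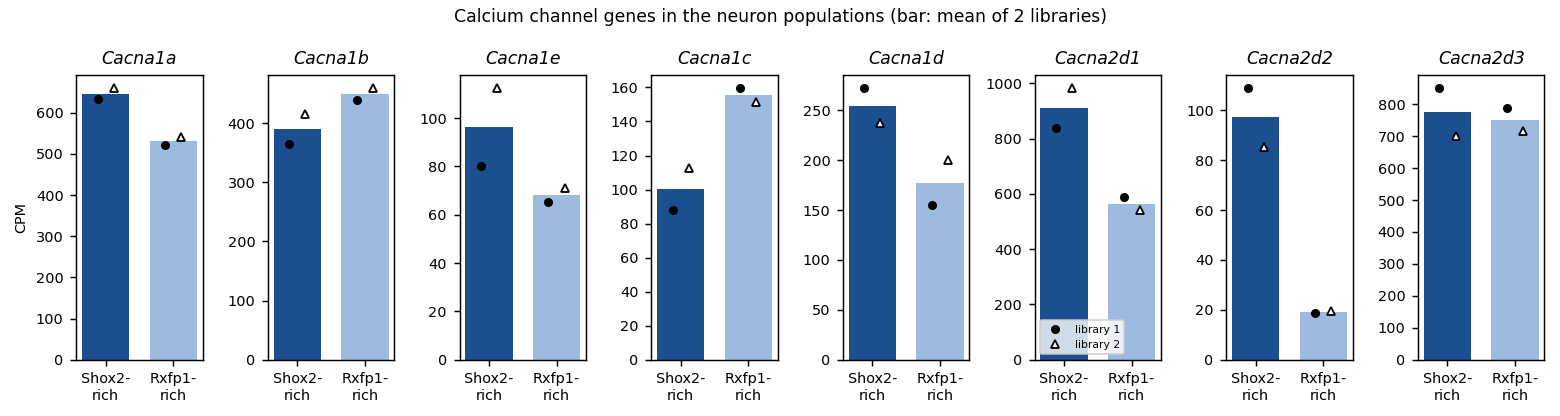
Level in CPM of 8 of the genes in Shox2-rich neurons (left) and Rxfp1-rich neurons (right), with a bar at the mean, a circle for library 1 and a triangle for library 2. Cacna2d2 lies at 109 and 85.4 CPM in Shox2-rich neurons, against 18.9 and 19.3 CPM in Rxfp1-rich neurons, and Cacna2d3 overlaps between the populations.

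Cacna2d2 differed most, with the values given above, which did not overlap. The log2 fold change was 2.23 (SE 0.33, adjusted p = 5.82e-08, edgeR quasi-likelihood test). A Cacna2d2 UMI was found in 31 of 41 and 37 of 49 Shox2-rich neurons (75.6% and 75.5%), against 23 of 69 and 17 of 55 Rxfp1-rich neurons (33.3% and 30.9%). In endothelial cells the share was 2.57% and 3.28%. Thinned to 5000 UMIs per cell, the shares were 41.0% and 29.3% for Shox2-rich neurons and 7.81% and 7.69% for Rxfp1-rich neurons, against 1.80% and 1.81% in endothelial cells. At that depth the test across all genes no longer called it (log2 fold change 1.82, adjusted p = 0.264).

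Cacna2d1 was higher in Shox2-rich neurons in both libraries, by 0.59 on the log2 scale (SE 0.10, adjusted p = 1.22e-06), and by 0.37 in library 1 alone. Cacna1c was lower, by -0.72 (SE 0.21, adjusted p = 0.0132), with 88.2 and 112 CPM against 160 and 152 CPM and no overlap. That call was lost with doublets kept (-0.68, adjusted p = 0.0503) and with cells thinned to 5000 UMIs (-0.98, adjusted p = 0.265), and the value was -0.46 in library 2 alone.

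The remaining 7 members were not called between the populations. Cacna1d had 272 and 237 CPM in Shox2-rich neurons, against 155 and 200 CPM in Rxfp1-rich neurons, without overlap (log2 fold change 0.42, SE 0.15, adjusted p = 0.0815). It was called with all UMIs used (0.48), at clustering resolution 1.5 (0.44) and without the shared barcodes (0.48). Cacna1b was lower in Shox2-rich neurons in both libraries, and its log2 fold change of -0.29 (SE 0.11) had an adjusted p of 0.104. With all UMIs it was called lower (-0.30, adjusted p = 0.0103). Cacna1a gave 0.19 (SE 0.10, adjusted p = 0.389), Cacna1e gave 0.39 (SE 0.26, adjusted p = 0.533) and Cacna2d3 gave -0.07 (SE 0.09, adjusted p = 0.81). Cacna1e was called higher at clustering resolution 1.5 (0.78, adjusted p = 0.0277) and was -0.25 with thinned cells. Cacnb2 overlapped between the populations, and Cacna1h rested on 1 count in all.

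Other neuron-like clusters were described without a test. A cluster of 38 cells led by Ddr2, Sema5a, Syt10, Ano2 and Ntrk3 had 322 and 340 CPM of Cacna1e. The Shox2-rich and Rxfp1-rich populations had at most 112 CPM of it. The same cluster had 297 and 316 CPM of Cacna2d3, below every value of those 2 populations, and 70.1 and 54.7 CPM of Cacnb2, above every one. Its Cacna1b level of 445 and 449 CPM lay within the range of the Rxfp1-rich neurons. A cluster of 342 cells with a median of 2826 UMIs and 7892 CPM of Malat1 had low levels throughout, such as 77.4 and 73.1 CPM of Cacna1b. Its 208 and 173 CPM of Cacna2d1 lay below smooth muscle cells (312 and 292 CPM). Its Cacna1a (97.8 and 77.0 CPM) lay below myelinating Schwann cells and its Cacna1d (32.6 and 53.9 CPM) below macrophages. Cacna1e, at 28.5 and 3.85 CPM, overlapped dendritic cells. The gaps from non-neuronal classes given above for these genes thus do not hold for this cluster. The Th level of this cluster was 872 CPM, against 323 CPM in Shox2-rich and 264 CPM in Rxfp1-rich neurons on the same pooled UMIs. Low Malat1 marks barcodes with little nuclear RNA, and its part in these low levels was not tested.

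**Figure D3:**
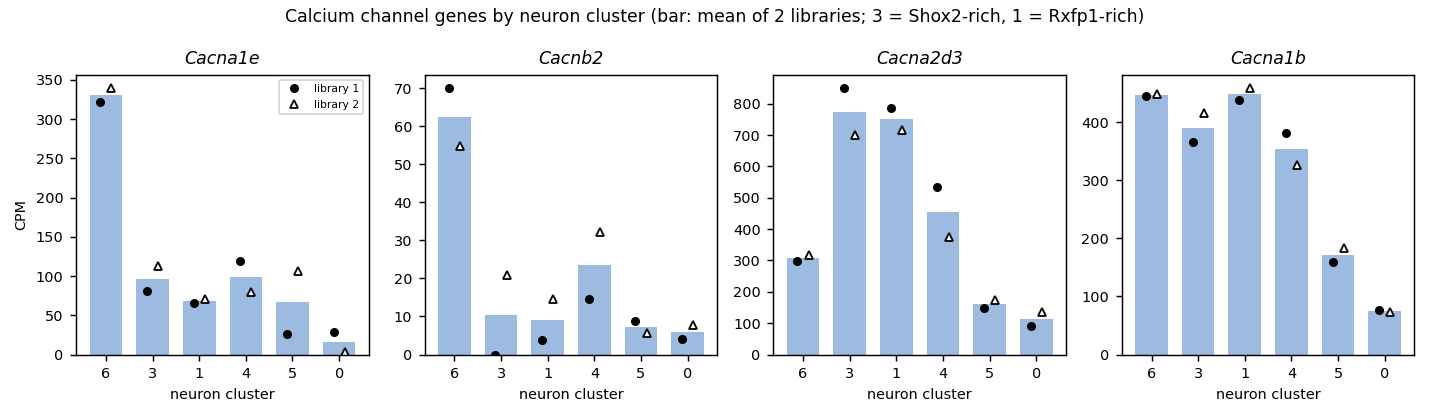
Level in CPM of 4 of the genes in 6 neuron clusters, with a bar at the mean, a circle for library 1 and a triangle for library 2. The cluster of 38 cells (number 6) stands above the other 5 for Cacna1e, at 322 and 340 CPM, and the cluster of 342 cells (number 0) is lowest of the 6 for Cacna1b and Cacna2d3.

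The third comparison set mural cells, that is smooth muscle cells and pericytes, against the other 8 non-neuronal classes. Other mural cells, 57 and 66 in number, entered no comparison, since markers of other cell types were among the leading genes of their clusters. The largest of these clusters, of 93 cells and led by Clec3b and Dpt, had 110 and 76.3 CPM of Cacna1a, above the pericyte values given below. Its Cacna1c level was 670 and 744 CPM. Of the 10 members, 5 were called higher and 0 lower, where 16.5% of genes tested were higher, 20.9% lower and 37.3% either. Cacna1c and Cacnb2 stood out in both mural classes, Cacna2d1 was raised in both and Cacna1h was raised mainly in smooth muscle cells. Neuron markers summed to 3052 and 3169 CPM in smooth muscle cells and to 4408 and 4743 CPM in pericytes, within the range of the other non-neuronal classes.

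Cacna1c had 899 and 849 CPM in smooth muscle cells and 1173 and 1183 CPM in pericytes, against 1.32 to 139 CPM in the other classes. The fibroblast level of 129 and 139 CPM was the nearest, and the groups did not overlap. Mural cells were higher by 6.17 on the log2 scale (SE 0.07, adjusted p = 4.42e-101, edgeR quasi-likelihood test). A Cacna1c UMI was found in 97.1% and 94.3% of smooth muscle cells and in 92.9% and 95.7% of pericytes, against 3.49% and 3.39% of endothelial cells. The medians were 7160 and 6807 UMIs in smooth muscle cells and 4250 and 4760 UMIs in pericytes, so pericytes reached this share at a lower depth.

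Cacnb2 had 904 and 949 CPM in smooth muscle cells and 311 and 353 CPM in pericytes, against 0 to 91.9 CPM elsewhere, highest in dendritic cells. There was no overlap. It was called higher (adjusted p = 2.49e-76), and since 1 class had no count the fold is given from the summed groups, at a log2 fold change of 5.53. Cacna2d1 had 312 and 292 CPM in smooth muscle cells and 214 and 254 CPM in pericytes, above all other non-neuronal classes. Its log2 fold change was 2.21 (SE 0.09, adjusted p = 2.07e-44). Cacna1h averaged 33.8 and 31.2 CPM over the mural classes, against 4.37 and 4.36 CPM over the others, which is 2.79 on the log2 scale (SE 0.45, adjusted p = 8.42e-08). The pericyte values of Cacna1h, 14.8 and 3.60 CPM, overlapped those of perineurial cells, 10.1 and 12.6 CPM. Cacna1a was called at 0.63 (SE 0.18, adjusted p = 0.00326). It lost the call with summed groups (0.35, adjusted p = 0.085), where 44.1% of genes were called, and with thinned cells (0.41, adjusted p = 0.288), and library 2 alone gave 0.38. The other 5 members were not called as reported. Of these, Cacna1d (0.24, adjusted p = 0.749) was called higher with all UMIs (0.80, adjusted p = 0.0178), with summed groups (1.09, adjusted p = 1.74e-05) and with doublets kept (1.45, adjusted p = 2.07e-10). The last setting also named the mural clusters anew, as given below.

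**Figure D4:**
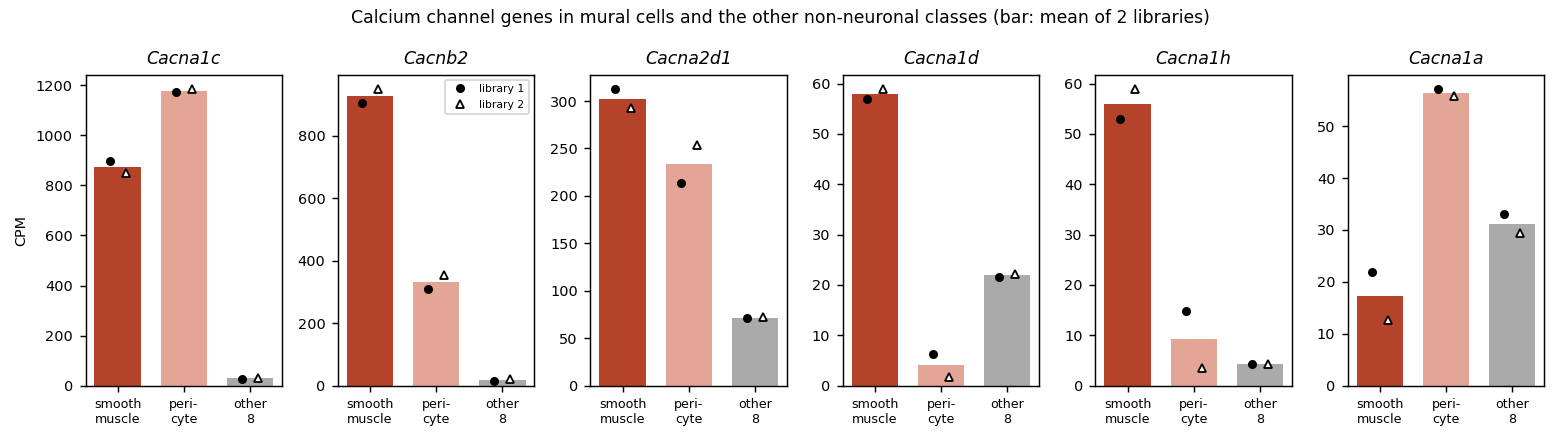
Level in CPM of 6 of the genes in smooth muscle cells (left), pericytes (middle) and the mean of the other 8 non-neuronal classes (right), with a bar at the mean of the libraries, a circle for library 1 and a triangle for library 2. Cacna1c is high in both mural classes, while Cacnb2, Cacna1d and Cacna1h are higher in smooth muscle cells than in pericytes.

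Within the vessel wall, smooth muscle cells had 4 members higher and 1 lower than pericytes, where 10.7% of genes tested were higher, 7.71% lower and 18.4% either. Smooth muscle cells carried Acta2, smooth muscle actin, at 9181 and 9729 CPM, against 57.1 and 112 CPM in pericytes. Kcnj8, a potassium channel gene of pericytes, had 14.6 and 18.1 CPM in smooth muscle cells, against 668 and 751 CPM in pericytes. Cacna1d had 56.9 and 58.8 CPM in smooth muscle cells, against 6.34 and 1.80 CPM (3 and 1 UMIs) in pericytes. Its difference was 4.15 on the log2 scale (SE 0.48, adjusted p = 2.3e-12, edgeR quasi-likelihood test). With so few pericyte UMIs, this SE is not read as the counting error of the fold. Cacna1h had 52.9 and 58.8 CPM in smooth muscle cells, against 14.8 and 3.60 CPM in pericytes, a log2 difference of 2.93 (SE 0.43, adjusted p = 1.29e-08). Neither gene overlapped between the classes, and the pericyte values of Cacna1h rested on 7 and 2 UMIs.

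Cacnb2 was higher in smooth muscle cells by 1.76 (SE 0.10, adjusted p = 7.5e-30) and Cacna2d1 by 0.64 (SE 0.13, adjusted p = 4.98e-05). Cacna1a was lower, with 22.0 and 12.7 CPM against 57.1 and 55.8 CPM in pericytes, at -1.41 (SE 0.32, adjusted p = 0.000325). Cacna1c was lower in smooth muscle cells in both libraries but was not called as reported (-0.16, SE 0.08, adjusted p = 0.187). It was called lower under 5 alternatives, at -0.23 to -0.55. With doublets kept, the log2 fold change fell to 1.77 for Cacna1d, 1.49 for Cacna1h and 0.88 for Cacnb2, all still called, and to 0.22 for Cacna2d1, no longer called (adjusted p = 0.205). In that setting the mural cells were also clustered and named anew. Clusters of 146 and 107 cells, with 4720 and 2309 CPM of Acta2, were then named pericytes. The part of this renaming in the smaller folds was not tested.

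Smooth muscle cells were not uniform. A cluster of 201 cells that carried both smooth muscle markers and Rgs5, a pericyte gene, had 1313 and 1305 CPM of Cacna1c. A cluster of 187 cells with the highest Acta2, at 12413 CPM, had 672 and 537 CPM of it. Cacnb2 had 1019 and 1241 CPM in the first and 832 and 843 CPM in the second. Leaving out the first cluster, chosen after its markers were seen, gave a Cacna1c difference between smooth muscle cells and pericytes of -0.55.

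Each non-neuronal class was set against the mean of the other 9, which gave 49 calls in 100 pairs of a gene and a class, 25 higher and 24 lower. Of all genes tested, from 20.9% (pericytes) to 58.7% (dendritic cells) were called in these contrasts. The 49 calls are therefore not read as particular to the members. Cacnb2 pairs rest on a fit in which 1 class had no count, so only its levels are given. These contrasts share classes and are not independent of each other.

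**Figure D5:**
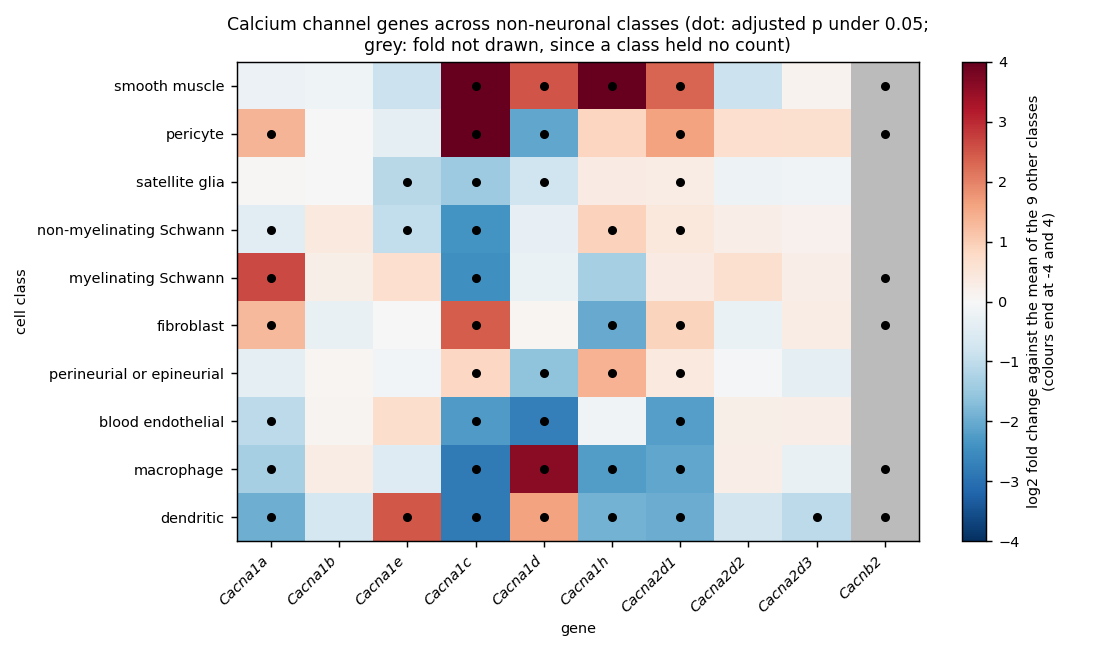
Log2 fold change of each gene in each of 10 non-neuronal classes against the mean of the other 9, with a dot where the adjusted p was under 0.05 and colours that end at -4 and 4. Cacnb2 is grey because 1 class had no count, and the highest values outside mural cells are Cacna1d in macrophages (3.61) and Cacna1a in myelinating Schwann cells (2.65).

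Myelinating Schwann cells, which wrap axons, had 1 member higher, Cacna1a, and 1 lower besides Cacnb2, where 21.5% of genes tested were called. Its level was 134 and 115 CPM, against 3.70 to 57.1 CPM in the other non-neuronal classes, with no overlap. The log2 fold change was 2.65 (SE 0.20, adjusted p = 6.97e-23, edgeR quasi-likelihood test). A UMI was found in 32.3% and 28.7% of these cells at medians of 4039 and 4089 UMIs, against 8.84% and 6.44% of the more deeply covered endothelial cells. Their neuron markers summed to 4672 and 4821 CPM, the top of the non-neuronal range. Cacna1b was at 6.60 and 12.8 CPM and was not called (log2 fold change 0.23, adjusted p = 0.868, edgeR quasi-likelihood test). The part of free neuronal RNA in the Cacna1a level of these cells was not tested. Cacna1c was lower, at 8.81 and 6.39 CPM (-2.46, SE 0.46, adjusted p = 5.8e-06), and Cacnb2 had no UMI in either library, which allows up to 6.60 and 6.39 CPM.

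Macrophages had 1 of the 9 members other than Cacnb2 higher and 4 lower, where 56.3% of genes tested were called. The higher one was Cacna1d, at 88.2 and 110 CPM, against 1.80 to 58.8 CPM in the other non-neuronal classes. The groups did not overlap, and the log2 fold change was 3.61 (SE 0.10, adjusted p = 8.33e-61). A Cacna1d UMI was found in 41.3% and 43.5% of macrophages, against 1.34% and 1.81% of endothelial cells. At 5000 UMIs per cell, which left out 206 and 227 macrophages, the shares were 30.5% and 35.6%, against 1.47% and 0.906%. The main macrophage cluster, led by Ccl12, Cx3cr1 and Ms4a7, had 91.9 and 114 CPM, against 21.1 and 40.2 CPM in a cluster of 123 cells led by Folr2, Cd209f and F13a1. Macrophages expressed little of the other pores, with Cacna1c at 4.38 and 4.47 CPM (-2.83, SE 0.26) and Cacna1a at 8.10 and 7.16 CPM (-1.33, SE 0.18).

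Dendritic cells had 2 members higher besides Cacnb2 and 5 lower, where 58.7% of genes tested were called. Cacna1e had 9.65 and 12.6 CPM, above the 0 to 8.51 CPM of the other non-neuronal classes (2.48, SE 0.31, adjusted p = 5.72e-12). Cacna1d had 28.5 and 22.6 CPM (1.60, SE 0.19, adjusted p = 7.53e-13), and 46.8 and 36.7 CPM in the cluster led by Lyz1, Tnip3 and Cd209a, against 9.76 and 9.87 CPM in the cluster led by Irf8 and Xcr1. Cacnb2 showed the opposite order, with 32.1 and 59.3 CPM in the Cd209a cluster, against 90.5 and 121 CPM in the Xcr1 cluster. A Cacnb2 UMI was found in 27.0% and 27.5% of dendritic cells at medians of 13677 and 13771 UMIs, and in 1.13% and 1.58% of endothelial cells. At 5000 UMIs per cell, which left out 40 and 41 dendritic cells, the shares were 18.1% and 19.9%, against 0.817% and 1.27%.

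Fibroblasts had 3 members higher besides Cacnb2 and 1 lower, where 54.4% of genes tested were called. Cacna1c had 129 and 139 CPM in fibroblasts, above every other non-neuronal class apart from mural cells (2.43, SE 0.08, adjusted p = 2.56e-54, edgeR quasi-likelihood test). A cluster of 445 cells led by Fat3, Pdgfra and Col15a1 had 406 and 334 CPM of it, against 67.5 to 170 CPM in the other 3 fibroblast clusters. This cluster had 92401 CPM of Malat1 and a median of 3419 UMIs. The other 3 had 29029 to 42699 CPM and medians of 6961 to 9305 UMIs, and the part of nuclear RNA was not tested. Cacna1a had 41.6 and 47.9 CPM in fibroblasts (1.31, SE 0.09, adjusted p = 3e-26), with 75.0 and 84.5 CPM in the cluster led by C3, C7 and Inmt. Cacna2d1 had 119 and 124 CPM (0.89, SE 0.06, adjusted p = 4.14e-25). Cacna1h was lower, at 1.75 and 0.614 CPM, a call lost with thinned cells.

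Perineurial or epineurial cells, which sheathe the ganglion, had 3 members higher and 1 lower, where 42.9% of genes tested were called. Cacna1h was higher, at 10.1 and 12.6 CPM (1.39, SE 0.28, adjusted p = 1.09e-05), second to smooth muscle cells though overlapping with pericytes. Cacna1c was higher on the mean of logs, at 57.2 and 52.8 CPM (0.82, SE 0.13, adjusted p = 5.01e-08). Blood endothelial cells had 0 members higher and 4 lower, where 53.3% of genes tested were called. Their Cacna1d was at 2.22 and 2.07 CPM (-2.72, SE 0.34), Cacna1c at 4.19 and 10.6 CPM (-2.25, SE 0.23), Cacna2d1 at 18.0 and 18.1 CPM (-2.19, SE 0.12) and Cacna1a at 12.1 and 8.78 CPM (-1.04, SE 0.17). Pericytes alone had 3 members higher besides Cacnb2 and 1 lower, where 20.9% of genes tested were called, and smooth muscle cells had 4 higher besides Cacnb2 and 0 lower, where the share was 36.8%. The lower one in pericytes, Cacna1d (-2.09, SE 0.60, adjusted p = 0.00499), turned to 0.31 (adjusted p = 0.435) with doublets kept and the mural clusters named anew.

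Satellite glia, which envelop neuronal cell bodies, were compared with non-myelinating Schwann cells. As reported, 2 members were higher and 0 lower, where 8.72% of genes tested were higher, 7.54% lower and 16.3% either. By DESeq2 1 member and 10.9% of genes were called. Cacna1c had 12.6 and 14.0 CPM in satellite glia, against 7.39 and 7.96 CPM in Schwann cells (0.84, SE 0.21, adjusted p = 0.00176). Cacna1a had 24.0 and 22.1 CPM, against 17.1 and 17.9 CPM (0.45, SE 0.15, adjusted p = 0.0247). These calls depended on how the glia were clustered. With doublets kept and at clustering resolution 1.5, 0 members were higher and 7 were lower in satellite glia, and without 2 glia clusters of mixed markers 0 were higher and 6 lower. The shares of all genes called under these settings are not given here, so these counts are not read as particular to the members. The larger of the mixed clusters, of 2151 cells, had 120669 CPM of Malat1, against 64680 CPM in the main satellite glia cluster, and higher Cacna1a (32.3 and 33.6 CPM, against 18.8 and 17.4 CPM). No difference between these glia is therefore read from the members. Satellite glia set against the other classes had 1 member higher and 3 lower (55.4% of genes tested), and non-myelinating Schwann cells had 2 higher and 3 lower (47.4%).

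The counts of the gene lists that follow stand beside these shares of all genes tested. In neurons 32.4% were higher and 33.1% lower, in Shox2-rich against Rxfp1-rich neurons 3.03% and 4.04%, in mural cells 16.5% and 20.9%, and in smooth muscle cells against pericytes 10.7% and 7.71%. The median log2 fold changes over all genes in these comparisons were -0.20, -0.02, -0.13 and 0.01. List counts for satellite glia against Schwann cells are left out, since the calls of that comparison changed with the clustering.

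Of 16 other channel subunit genes, 11 were tested. In neurons 9 were higher and 0 lower, with a median log2 fold change of 3.53. They include Cacng3 (5.43), Cacng2 (4.04) and Cacng4 (3.87), γ subunits best known as partners of AMPA-type glutamate receptors. Cacng8, of the same family, was also called higher. No fold is given for it, since its fit gave no usable SE in the mural comparison. Between the neuron populations, 2 were higher in Shox2-rich neurons and 0 lower, with a median of -0.0021. Cacng2 had 156 and 146 CPM in Shox2-rich neurons, against 21.4 and 22.6 CPM in Rxfp1-rich neurons (2.68, SE 0.29, adjusted p = 3.87e-13, edgeR quasi-likelihood test). Cacng4 had 51.9 and 62.5 CPM, against 10.1 and 17.7 CPM (1.97, SE 0.42, adjusted p = 0.000218). Both genes thus went the same way as Cacna2d2.

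In mural cells 3 of the 11 were higher and 0 lower, with a median of 0.66, and smooth muscle cells had 2 higher and 0 lower than pericytes, with a median of -0.29. Those higher in mural cells include the β subunit gene Cacnb4 (3.24) and Cacng7 (2.15). Cacnb4 had 92.7 and 74.2 CPM in smooth muscle cells, against 12.7 and 25.2 CPM in pericytes (2.37, SE 0.33, adjusted p = 1.81e-09). Cacna1g, another T-type pore, had 54.5 and 52.5 CPM in smooth muscle cells and no UMI in pericytes, where a count of 0 allows up to 6.34 and 5.40 CPM. Smooth muscle cells thus had the highest levels of both T-type pores Cacna1g and Cacna1h among the classes. Cacna1g was at 6.36 and 6.96 CPM in fibroblasts and at most 2.20 CPM in the other classes.

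Of 20 regulators and partners of calcium channels, 16 were tested, and 9 were higher and 7 lower in neurons, with a median of 1.15. Fam155a, a partner of the sodium leak channel, had 2053 and 2372 CPM in neurons, against 7.53 and 8.78 CPM elsewhere (7.95). Stac, an adaptor known to slow inactivation of L-type channels, was higher by 5.28. Rem1 and Rrad, small GTPases known to lower channel current, were lower: Rem1 had 0.628 and 0 CPM in neurons, against 44.6 and 44.5 CPM elsewhere, and Rrad had 0.628 and 0.806 CPM, against 22.0 and 23.7 CPM. In mural cells 10 were higher and 1 lower, with a median of 0.58. Stac had 248 and 229 CPM, against 3.83 and 3.41 CPM in the other non-neuronal classes (5.73), and Cabp1, which encodes a calmodulin-like calcium sensor, was higher by 4.69. Between smooth muscle cells and pericytes 6 were higher and 2 lower, with a median of 0.30 and Cabp1 at 3.30. Rem1 had 24.4 and 14.5 CPM in smooth muscle cells, against 228 and 236 CPM in pericytes (-3.29), and Rrad had 98.4 and 116 CPM, against 31.7 and 27.0 CPM (2.14). The 2 GTPases thus ran in opposite directions within the vessel wall. Between Shox2-rich and Rxfp1-rich neurons 1 was higher and 4 lower, with a median of -0.19, and the largest difference was that of Thsd7a (-3.03).

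Of 28 genes of calcium stores and calcium-activated channels, 27 were tested, with 12 higher and 10 lower in neurons and a median of -0.62. Ryr2, a calcium release channel of the endoplasmic reticulum, was higher by 6.75, Slc8a3, a sodium-calcium exchanger, by 6.74 and Kcnma1, the pore of the large-conductance calcium-activated potassium channel, by 5.70. Shox2-rich neurons had 4 higher and 1 lower than Rxfp1-rich neurons and a median of -0.01, with Slc8a3 at 0.78, Kcnn3 at 0.73, Kcnn2 at 0.71 and Slc8a1 at 0.48. In mural cells 13 were higher and 7 lower, with a median of 0.20, led by the calcium-activated chloride channel gene Ano1 (7.99). Smooth muscle cells had 11 higher and 3 lower than pericytes, with a median of 0.42. Kcnma1 had 136 and 139 CPM in smooth muscle cells, against 12.7 and 10.8 CPM in pericytes (3.82), and its β1 subunit gene Kcnmb1 had 43.9 and 53.4 CPM, against 0 and 1.80 CPM.

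Of 25 active zone and vesicle release genes, 3 were used for naming and 22 were tested. In neurons 20 were higher and 0 lower, with a median of 3.36, among them Erc2 (7.29), Rims2 (6.34), Rimbp2 (5.77) and Cadps (5.76), scaffold and priming proteins of release sites. Rims1, which ties calcium channels to vesicles, was higher in Shox2-rich neurons, at 316 and 360 CPM, against 118 and 135 CPM in Rxfp1-rich neurons (1.33, SE 0.15). In all 4 were higher and 4 lower between these populations, with a median of -0.08 and Nrxn3 at -1.96. In mural cells 5 were higher and 2 lower, with a median of 0.26, and smooth muscle cells had 0 higher and 3 lower than pericytes, with a median of -0.37.

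Of 15 genes of smooth muscle contraction and excitation, 10 were tested apart from naming markers. In mural cells 9 were higher and 0 lower, with a median of 5.42, among them Trpc6 (7.42), Mylk (5.90) and Myl9 (5.61). Between smooth muscle cells and pericytes 6 were higher and 3 lower, with a median of 0.78. In neurons 2 were higher and 4 lower, with a median of -2.19, and in Shox2-rich neurons 1 was higher and 3 were lower than in Rxfp1-rich neurons, with a median of -0.08.

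The genes most like each member were found by Pearson correlation of log2(CPM + 5) over 12 classes, a description over points that share 2 libraries. Cacna1b was closest to Fam155a (r = 0.998), Ptprn2 (0.997) and March4 (0.997), and Cacna2d3 to Ptprn2 (0.998), Mgat4c (0.998) and Gm26871 (0.997). Cacna1e was closest to Tenm4 (0.987) and Cacna2d2 to Cdh8 (0.991). Among the genes high in mural cells, Cacna1c was closest to Gucy1b1 (0.936), Cacnb2 to Itga8 (0.961) and Cacna1h to Nudt4 (0.949). Cacna1a (Pcgf1, 0.969), Cacna1d (Ap3d1, 0.949) and Cacna2d1 (Miga2, 0.959) had partners that peaked in neurons at under 80 CPM.

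All 10 are long protein-coding genes, of 59.5 kb for Cacna1h to 817 kb for Cacna2d3 in GENCODE M21 on GRCm38. Neither the use of intron reads nor of strand in counting is known here, so genes on the opposite strand may share counts. Opposite-strand genes with a row in the tables overlap 8 of the 10, all but Cacna1b and Cacna1e. Gm16183, opposite Cacna1a, reached 35.4 to 54.8 CPM in the neuron populations, and Gm10848 and Gm13269, opposite Cacnb2, reached 25.2 to 30.9 CPM in smooth muscle cells. Opposite Cacna2d3, Gm48003 had 38.9 and 14.6 CPM in Shox2-rich and 25.1 and 32.2 CPM in Rxfp1-rich neurons, and Lrtm1 had 15.6 and 8.33 CPM in Shox2-rich and 18.9 and 30.6 CPM in Rxfp1-rich neurons. Dcp1b, opposite Cacna1c, had 9.76 and 10.9 CPM in smooth muscle cells and 16.9 and 19.8 CPM in pericytes. Chdh and Dcp1a lie opposite Cacna1d, and their highest levels were 41.8 and 46.8 CPM for Chdh, in myelinating Schwann cells, and 20.7 and 41.6 CPM for Dcp1a, in Shox2-rich neurons. In macrophages, where Cacna1d was high, Chdh had 0.219 and 0.894 CPM and Dcp1a had 18.4 and 14.3 CPM.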

How the data were processed

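The authors deposited raw counts: UMIs for each gene in each barcode, not normalized. The submitters' processing notes name Cell Ranger 6.1.2 and mm10. No source used here states the cell filters, annotation release, strand or intron counting. The members and gene lists were chosen with earlier results of these data known.

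Barcodes needed 500 genes, 1000 UMIs and a mitochondrial share under 20%, and doublets called by Scrublet in scanpy 1.11.5 (4.45% and 5.09%) were removed. Each cell's counts were split at random with probability 0.5. One part gave log-normalized values, 3000 variable genes without the 107 listed genes, 30 principal components, 15 neighbours and 26 Leiden clusters (leidenalg 0.10.2, resolution 1), named by markers. Neuron-like and mural cells were clustered again at resolution 0.8. A neuron cluster was named Shox2-rich or Rxfp1-rich where its levels of these genes, each relative to the highest cluster, differed by over 0.25 in both libraries. The other part was summed per library and class. Classes of a library share 1 cell suspension, which is the source of the pairing, so the library entered as a block.

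One fit of 32 sums with edgeR 4.0.16 (TMM, filterByExpr, glmQLFit, glmQLFTest) tested 15258 genes, with 15 residual degrees of freedom. The prior on the spread, drawn from all genes, had 95.9 degrees of freedom, so it weighed more than a gene's own spread. Benjamini-Hochberg adjustment ran over all genes of each comparison at a threshold of 0.05. The SE of a log2 fold change was derived from the F statistic of its test and was not estimated separately. Apart from the neuron populations, classes tested had at least 100 cells in each library. The text gives all 10 members and, from each list, the genes of largest absolute log2 fold change among those that passed. Alternatives were DESeq2 1.42.0, other scaling, no filter, all UMIs, 4 sums per comparison, doublets kept, resolution 1.5, thinning to 5000 UMIs, no library block, single libraries, and leaving out clusters of mixed markers or shared barcodes. The fit was tested on simulated data. Limits from a count of 0 use 3 counts and cover counting error only.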

Additional observations from a re-analysis of the deposited data

Results flagged for a closer look

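A cluster of 816 barcodes, with a median of 1818.5 UMIs and led by Scg2, Syt4 and Slc6a2, was given no name and entered no comparison, yet held calcium channel counts above the 3 UMIs per library that a count of 0 allows. Its closest class was neuron, with 14 of 18 neuron markers raised against the other clusters, and its Malat1 was low, at 5604 CPM. As means of the libraries it had 254 CPM of Cacna2d1, 86.1 CPM of Cacna1b, 64.8 CPM of Cacna2d2, 45.8 CPM of Cacna1a, 45.1 CPM of Cacna2d3, 30.2 CPM of Cacna1c, 29.0 CPM of Cacna1e and 17.8 CPM of Cacna1d. Cacna1b had 97.6 and 74.7 CPM there, on 48 and 34 UMIs, below both neuron populations and above every named non-neuronal class. Cacna2d2 had 54.9 and 74.7 CPM there, between the values of Shox2-rich and Rxfp1-rich neurons.

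Lymphatic endothelial cells, 36 and 29 in number and too few for the comparisons, had a mean of 153 CPM of Cacna2d1 and 31.6 CPM of Cacna2d3. For Cacna2d1 the values were 115 and 191 CPM, against 18.0 and 18.1 CPM in blood endothelial cells. For Cacna2d3 each library held 4 UMIs. Neither difference was tested.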

How the results depend on the processing

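Over the 5 comparisons and the pairs called in the class map, 873 recomputed fold changes kept direction and side of the threshold, 37 passed it anew, 31 no longer passed it and 15 changed sign. In Shox2-rich against Rxfp1-rich neurons, where 3 members were called, 5 were called with all UMIs and at resolution 1.5, and 1 with cells thinned to 5000 UMIs. In satellite glia against Schwann cells, where 2 were called, 1 was called with DESeq2 and with thinned cells, 7 with doublets kept and at resolution 1.5, and 6 without the mixed glia clusters, chosen after seeing the data. Without the library as a replicate block, that is without pairing the classes of a library, 1 was called there, since Cacna1a (0.45, adjusted p = 0.0547, edgeR) lost its call. Cacna1e in non-myelinating Schwann cells (-0.98) also lost its call without the block, and no other call of a member changed. For the alternatives in these counts, only the DESeq2 share of all genes is given above. The counts are therefore not read as particular to the members. Log2 fold changes that changed sign between settings were as follows. With thinned cells Cacna1e in the neuron populations was -0.25, Cacna1b and Cacna2d2 in mural cells were 0.40 and 0.54, and Cacna2d3 in satellite glia against Schwann cells was 0.0298. Cacna1b in mural cells was 0.0104 with all UMIs and 0.0109 with 4 sums, and Cacna2d2 there was 0.0356 with 4 sums. With doublets kept Cacna2d2 in smooth muscle cells against pericytes was 0.0731, Cacna1d in pericytes 0.31, Cacna2d1 in satellite glia -0.0432, and Cacna1a and Cacna1c in satellite glia against Schwann cells -0.19 and -0.29. At resolution 1.5 the last pair were -0.25 and -0.40, and Cacna1a in non-myelinating Schwann cells was 0.0259. With each library left out in turn, Cacna1e in those cells ranged over -1.18 to 0.13. The causes were not tested. From single libraries 192 values kept their sign, and 5 of results not called did not. Cacnb2 in the neuron populations was -2.15 in library 1 and 0.46 in library 2, Cacna1d in mural cells 0.31 and -0.0986, and Cacna1e in satellite glia against Schwann cells -0.46 and 0.37, and the others came out at 0. Leaving out the barcodes found in both libraries, also chosen after seeing the data, moved no count by over 1.5 times. Cacna1d in the neuron populations gained a call, Cacna1e in non-myelinating Schwann cells lost one, and the class map had 27 calls higher and 24 lower, against 25 and 24 as reported. Depth limited the low genes, since a count of 0 allows up to 7.78 CPM in Shox2-rich neurons and 6.34 CPM in pericytes.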
